A study of Mus musculus with 6 samples.

Results

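The STAT3 cytokine pathway and the ErbB receptor family were followed through 10 genes in newborn mouse retina: Il6st, Lifr, Jak1, Jak2, Stat3, Socs3, Egfr, Erbb2, Erbb3 and Erbb4. They were chosen by name, as genes of pathways in which substrates of the protein tyrosine phosphatase Meg2 have been reported, and all 10 were found among the 19938 genes that had a transcript cluster of their own. Where a gene had several such clusters, the one with the highest mean over the 6 arrays stood for it.

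In the cytokine pathway, ligands such as interleukin-6, LIF and CNTF bring together receptor chains that share gp130, and the Janus kinases bound to these chains phosphorylate STAT3, which enters the nucleus and switches on genes, among them that of its own inhibitor SOCS3. ErbB receptors are tyrosine kinases that pair after binding ligands of the EGF and neuregulin families and feed the ERK and PI3 kinase pathways. In the retina, gp130 cytokines are known for holding back rod differentiation and for activating Muller glia, and EGF receptor signalling for driving progenitor proliferation. Meg2, encoded by Ptpn9, has been reported to dephosphorylate STAT3, EGFR and ErbB2, which is an action on proteins that a transcript array does not measure.

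Transcript signal was measured on 6 arrays, 3 from Meg2 knockout mice and 3 from Meg2 wild-type mice, all at postnatal day 0 and on a C57BL/6NTac background. Per the labels both retinae of an animal were pooled for 1 array. The labels name neither the allele nor the deleted part of Ptpn9. Values are normalised log2 signals of transcript clusters, the groups of probes that each cover a transcript, and the median signal per array lay between 7.84 and 7.91.

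Both replicate 2 arrays carried Xist together with Y-linked signal, which goes against the labels' account of 1 animal per array. They had Xist at 12.54 and 12.55 and the Y-linked gene Uty at 7.18 and 7.67, whereas the replicate 1 arrays had Uty at 5.22 and 4.71 and the replicate 3 arrays had Xist at 6.26 and 6.52. The values of the 10 genes, and of pathway genes past the unadjusted level, are therefore also given without the replicate 2 arrays. The replicate 1 arrays had Xist at 12.58 and 12.73, and the replicate 3 arrays had Uty at 9.53 and 9.34. Replicate number thus went with sex-linked signal in both genotypes. Retinal progenitor markers (7 of 7) and ganglion cell markers (8 of 8) were brighter than 95% of the 1023 olfactory receptor clusters, a set used here as a reference for dim signal. Ptpn9 read 9.31, 9.58 and 9.28 on the knockout arrays and 10.05, 9.93 and 9.94 on the wild-type arrays, without overlap. The difference was -0.58 (SE 0.087; limma, unadjusted p = 0.000108, adjusted p = 0.437).

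None of the 10 genes passed the comparison of knockout with wild type, neither after correction nor at the unadjusted level. Differences, always given as knockout minus wild type on the log2 scale, ran from -0.027 for Il6st to 0.10 for Egfr, with 7 genes above 0 and 3 below 0. In limma 0 of the 10 genes had an adjusted p under 0.05, and so did 0 of the 23410 tested clusters. An unadjusted p under 0.05 was found for 0 of the 10 genes and for 3.43% of the tested clusters. Knockout and wild-type arrays overlapped for every one of the 10 genes, while 8.43% of tested clusters did not overlap. The median difference was 0.032 over the 10 genes and 0.0012 over all tested clusters.

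The 95% intervals give a range for the mean difference of each gene between the genotypes, with the arrays taken as independent. Among the 10 genes the lowest bound was -0.22 and the highest 0.28, or 0.859-fold and 1.21-fold of the wild-type signal. Each interval covers 1 gene and not the 10 jointly, and comes from a fit that leaves out the replicate numbers. With 3 arrays per genotype the smallest p that an exact permutation test allows is 0.1, so single genes were tested with limma alone. Signals of different clusters depend on their probes as well as on the transcript, so a brighter or dimmer cluster, as named below, does not show a more or less abundant transcript.

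**Figure D1:**
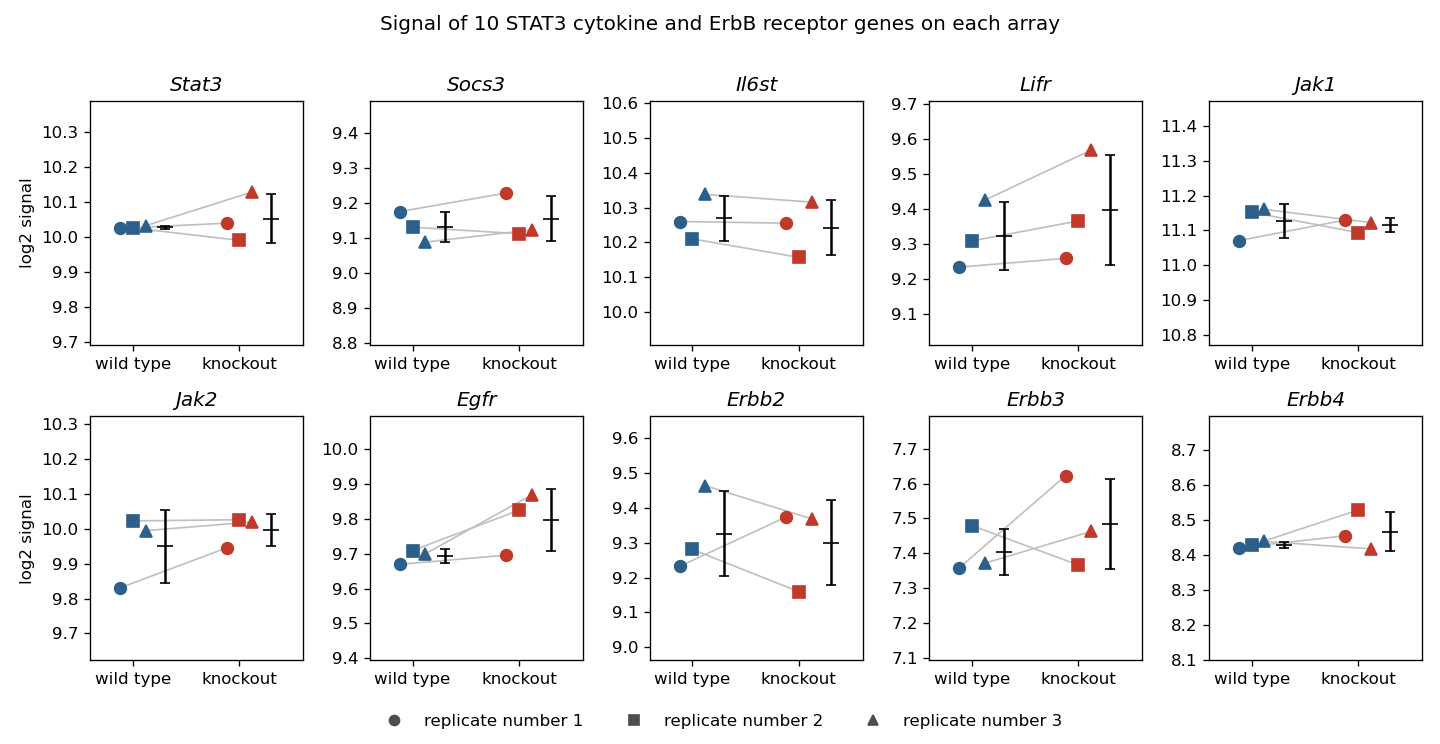
Log2 signal of each of the 10 genes on every array, wild type in blue and knockout in red, with marker shapes for the replicate numbers of the labels, grey lines joining arrays of the same number, and bars for the mean and SD of the 3 arrays. Every panel spans the same log2 distance, and the groups overlap in all of them.

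The shared receptor chain gp130 is encoded by Il6st (cluster 10407173), whose signal was above that of all 1023 olfactory receptor clusters. Il6st read 10.26, 10.16 and 10.32 on knockout arrays 1 to 3 and 10.26, 10.21 and 10.34 on wild-type arrays 1 to 3. In both genotypes the replicate 2 array was the lowest and the replicate 3 array the highest. The mean was 10.24 ± 0.080 in knockout retina and 10.27 ± 0.064 in wild-type retina (SD, n = 3), a difference of -0.027 (SE 0.066, 95% interval -0.18 to 0.12; limma, adjusted p = 1.00).

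Lifr (cluster 10422822) encodes the LIF receptor chain that pairs with gp130. It read 9.26, 9.37 and 9.57 in knockout retina and 9.23, 9.31 and 9.43 in wild-type retina. The replicate 1 arrays were lowest and the replicate 3 arrays highest in both genotypes, and Lifr had the largest spread of the 10 genes, with an SD of 0.12 over the 6 arrays. The knockout array lay above the wild-type array of the same number in 3 of 3 replicates, by 0.025, 0.057 and 0.14. The difference of 0.075 (SE 0.089, 95% interval -0.13 to 0.28; limma, adjusted p = 1.00) was smaller than the spread between replicates, and it was -0.010 without the knockout replicate 3 array.

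Among 10972 other clusters above the median signal, those that followed the array pattern of Lifr most closely belonged to Tox4, Mrps33 and Rps28. The measure was the mean absolute difference of centred log2 signals over the 6 arrays, which was 0.016 for Tox4, 0.017 for Mrps33 and 0.018 for Rps28. These clusters were picked by rank from 10972, so their closeness over 6 arrays does not show shared regulation. Tox4 encodes a chromatin-associated HMG box protein, and Mrps33 and Rps28 encode a mitochondrial and a cytosolic ribosomal protein. The signal of Rps28 is uncertain, because cytosolic ribosomal protein genes have near-identical copies.

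Of the Janus kinases, which phosphorylate the receptor chains and STAT3, Jak1 (cluster 10514668) read 11.13, 11.09 and 11.12 in knockout retina and 11.07, 11.15 and 11.16 in wild-type retina. All 3 knockout values lay between the lowest and the highest wild-type array. Its SD over the 6 arrays, 0.034, was the smallest of the 10 genes, and its difference was -0.012 (SE 0.057, 95% interval -0.14 to 0.12; limma, adjusted p = 1.00). Jak2 (cluster 10462363), the kinase also used by single-chain cytokine and hormone receptors, read 9.94, 10.03 and 10.02 in knockout retina and 9.83, 10.02 and 9.99 in wild-type retina. The replicate 1 array was the lowest of its genotype in both groups. The difference was 0.047 (SE 0.069, 95% interval -0.11 to 0.20; limma, adjusted p = 1.00), and it was -0.012 without the wild-type replicate 1 array.

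Stat3 (cluster 10391301), the transcription factor of the pathway, read 10.04, 9.99 and 10.13 in knockout retina and 10.03, 10.03 and 10.03 in wild-type retina. The wild-type arrays were nearly alike, with an SD of 0.0040 against 0.070 in the knockout, and the knockout arrays fell on both sides of them. The difference was 0.025 (SE 0.059, 95% interval -0.11 to 0.16; limma, adjusted p = 1.00). Without both replicate 2 arrays the remaining knockout arrays lay above the remaining wild-type arrays, at a difference of 0.055 (limma, unadjusted p = 0.502), and in these 4 arrays 29% of all tested clusters did not overlap.

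Socs3 encodes the inhibitor that STAT3 induces and that binds gp130 and the Janus kinases, which makes its transcript a common readout of pathway activity. Its promoter is shown because it was the 1 promoter among those matched to the 10 genes that held the palindrome of STAT binding sites. The 250 bases before the annotated start are taken from RefSeq (GRCm38.p6, chr11:117969367-117969616, minus strand), with the match in capitals.
Socs3: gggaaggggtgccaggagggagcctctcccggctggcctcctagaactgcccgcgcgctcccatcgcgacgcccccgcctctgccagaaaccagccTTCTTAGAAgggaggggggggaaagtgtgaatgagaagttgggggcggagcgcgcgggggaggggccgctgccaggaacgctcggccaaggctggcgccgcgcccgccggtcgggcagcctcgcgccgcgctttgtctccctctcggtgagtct

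The motif searched was TTCNNNGAA, which reads the same on both strands, and the match in Socs3 lies 154 to 146 bases before the start. RefSeq promoters were matched for 9 of the 10 genes, all but Erbb3, and 1 of these 9 held the motif. Of all 32851 promoter windows of the same length, 7.02% held it. A match is a description of the sequence and not a site shown to be bound.

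Socs3 signal (cluster 10393449) was 9.23, 9.11 and 9.12 in knockout retina and 9.18, 9.13 and 9.09 in wild-type retina. Replicate 1 gave the highest array of each genotype, and the groups overlapped. The mean was 9.16 ± 0.064 in knockout retina and 9.13 ± 0.044 in wild-type retina (SD, n = 3), a difference of 0.023 (SE 0.061, 95% interval -0.11 to 0.16; limma, adjusted p = 1.00). A dimmer cluster annotated to Socs3 (10383010) had a mean of 7.22 in knockout retina and 7.24 in wild-type retina, a difference of the opposite sign at -0.022 (SE 0.059; limma, adjusted p = 1.00).

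The ErbB family members differ in what they bind and signal: EGFR binds EGF and its relatives, ErbB2 has no known ligand and serves as a partner, ErbB3 binds neuregulins with little kinase activity of its own, and ErbB4 binds neuregulins and is an active kinase. Egfr (cluster 10374366) had the largest difference of the 10 genes. It read 9.70, 9.82 and 9.87 in knockout retina and 9.67, 9.71 and 9.70 in wild-type retina. The knockout replicate 1 array lay within the wild-type range, and the other two knockout arrays lay above it. The mean was 9.80 ± 0.090 in knockout retina and 9.69 ± 0.021 in wild-type retina (SD, n = 3).

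The Egfr difference was 0.10 (SE 0.064, 95% interval -0.041 to 0.25), or 1.07-fold, and it did not pass (limma, unadjusted p = 0.14, adjusted p = 1.00). Knockout arrays lay above the wild-type arrays of the same number in 3 of 3 replicates, by 0.026, 0.12 and 0.17. Without the knockout replicate 1 array the Egfr difference was 0.15 (limma, unadjusted p = 0.0331), in a fit where 5.54% of tested clusters had an unadjusted p under 0.05. Without the knockout replicate 3 array it was 0.067 (limma, unadjusted p = 0.357), and without both replicate 2 arrays it was 0.098 (limma, unadjusted p = 0.303). Egfr alone of the 10 genes came under 0.05 at the unadjusted level in any alternative that was run, and that was the alternative without knockout replicate 1.

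Erbb2 (cluster 10380896) read 9.37, 9.16 and 9.37 in knockout retina and 9.23, 9.28 and 9.46 in wild-type retina. The lowest of the 6 arrays was a knockout array and the highest a wild-type array, with an SD of 0.12 in each genotype. The difference was -0.025 (SE 0.085, 95% interval -0.22 to 0.17; limma, adjusted p = 1.00). It was 0.14 within replicate 1, -0.12 within replicate 2 and -0.095 within replicate 3. It turned to 0.045 without the knockout replicate 2 array and to 0.044 without the wild-type replicate 3 array.

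Erbb3 (cluster 10373467) had the dimmest signal of the 10 clusters relative to the reference, since 33 of the 1023 olfactory receptor clusters were at or above it. It read 7.62, 7.37 and 7.46 in knockout retina and 7.36, 7.48 and 7.37 in wild-type retina. Replicate 1 of the knockout was the highest array. The difference of 0.081 (SE 0.077, 95% interval -0.095 to 0.26; limma, adjusted p = 1.00) was 0.011 without that array. Without both replicate 2 arrays it was 0.18 (limma, unadjusted p = 0.0766).

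Erbb4 (cluster 10355278) read 8.46, 8.53 and 8.42 in knockout retina and 8.42, 8.43 and 8.44 in wild-type retina. The wild-type arrays lay within an SD of 0.0092, and the knockout arrays fell on both sides of them, with an SD of 0.057. The difference was 0.038 (SE 0.057, 95% interval -0.092 to 0.17; limma, adjusted p = 1.00). It was 0.0070 without the knockout replicate 2 array and 0.0064 without both replicate 2 arrays.

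Without both replicate 2 arrays 0 of the 10 genes had an unadjusted p under 0.05 (limma), where 3.02% of tested clusters did. Erbb2 and Jak1 changed sign, to 0.023 and 0.011. Il6st was at -0.013, Lifr at 0.084, Jak2 at 0.070 and Socs3 at 0.044, all with the sign they had over the 6 arrays.

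**Figure D2:**
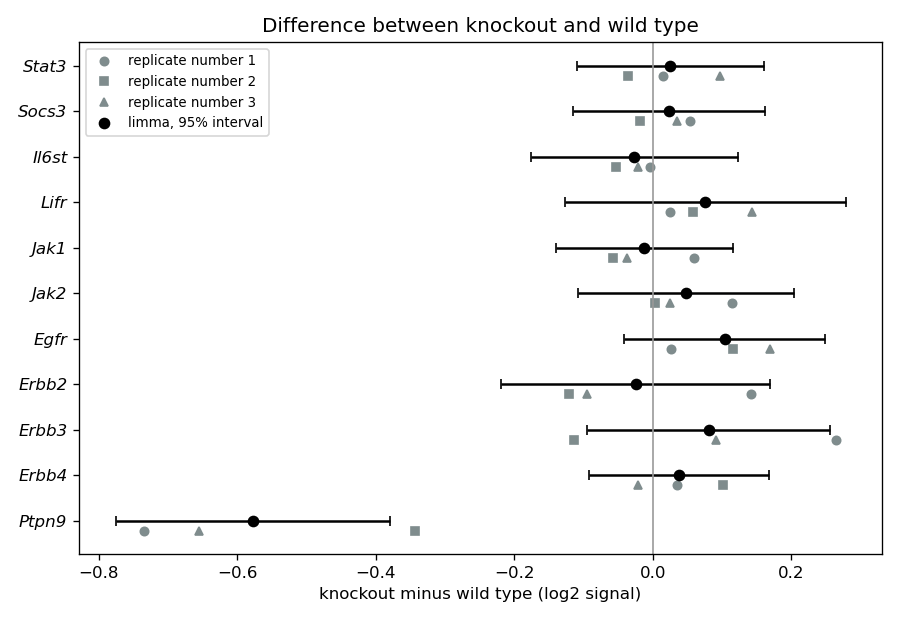
Difference of each gene, knockout minus wild type on the log2 scale: black points with 95% intervals from limma, and grey markers for the difference between the arrays of each replicate number. The intervals of the 10 genes include 0, and that of Ptpn9, from -0.78 to -0.38, does not.

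The spread over replicate numbers was set beside the genotype difference as a description. In 8 of the 10 genes the range of the 3 replicate-number means, each the mean of the knockout and the wild-type array of that number, was larger than the genotype difference. This held for 85.0% of all tested clusters as well, so it does not set these genes apart. A range of 3 means can exceed 1 difference of group means without any effect of replicate number, so the count is a description. Because replicate number went with sex-linked signal, spread over the numbers and spread with sex cannot be told apart. The widest ranges belonged to Lifr, with a range of 0.25 over replicate numbers against a genotype difference of 0.075, for Erbb2, with 0.20 against -0.025, and for Il6st, with 0.14 against -0.027. For Egfr and Erbb3 the genotype difference was the larger. Differences within replicate numbers had 1 sign in 4 of the 10 genes (Il6st, Lifr, Jak2 and Egfr) and in 32.4% of tested clusters.

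**Figure D3:**
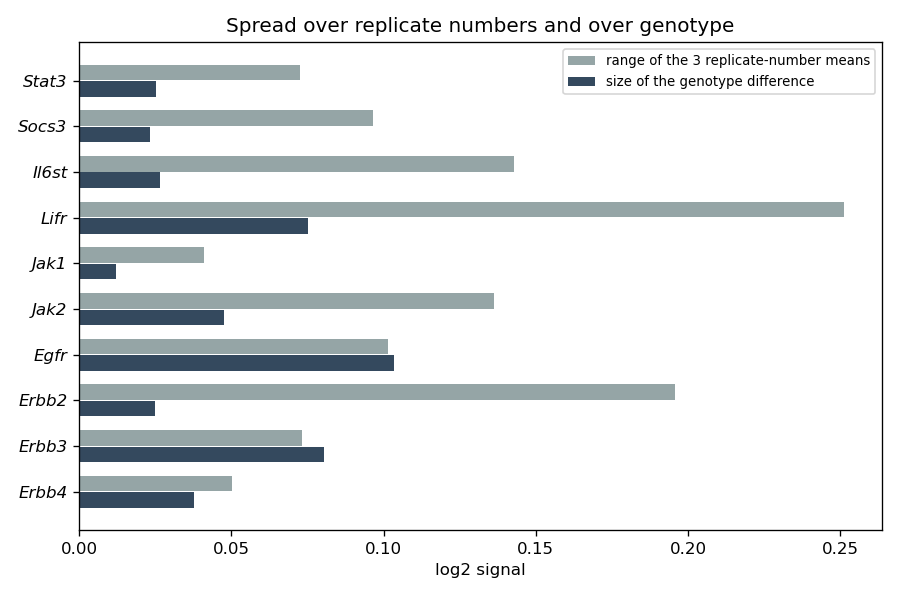
For each of the 10 genes, the range of the 3 replicate-number means (light bars) and the size of the genotype difference (dark bars), both in log2 signal and from 0. The light bar is longer in 8 of the 10 genes, the exceptions being Egfr and Erbb3. The range exceeds the genotype difference in 85.0% of all tested clusters.

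Fitted with the replicate number as a block, 0 of the 10 genes passed either, and the lowest p was that of Egfr (limma, unadjusted p = 0.0805, adjusted p = 0.591). The share of tested clusters with an unadjusted p under 0.05 was 8.81% in that fit. The SE of the Lifr difference was 0.049 with the block and 0.089 without it, and that of Erbb3 was 0.075 and 0.077.

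The surrounding pathways were read from 8 lists, which held 115 genes, 107 of them with a cluster of their own. Of these 107, 58 lay above 0, and the median difference was 0.012. In limma 0 passed correction, as over all tested clusters. At an unadjusted p under 0.05, 4 were higher and 1 was lower in the knockout, against 1.69% of tested clusters higher and 1.74% lower. The 5 genes are 4.67% of the 107. Arrays did not overlap in 9 of the 107, or 8.41%, a share near the 8.43% of all tested clusters. By list these were 5 of 26 genes induced through STAT3 and 4 of 19 ErbB adaptors and regulators, with 0 in every other list. With the replicate block the count at the unadjusted level was 9 (8.41%), again near the share of all tested clusters in that fit. The genes joining were Cp, Tgm1, Errfi1 and Egr1, with differences of 0.16, 0.14, 0.14 and 0.24.

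Of the cytokines that act through gp130, 3 of 8 measured ligand genes lay above 0 and 0 passed, with a median of -0.0079. The brightest were Clcf1, a ligand of the CNTF receptor, at 0.042 (SE 0.066) and Il27 at 0.074 (SE 0.079). Only 4 of the 8 ligand genes were brighter than 95% of olfactory receptor clusters, and Il6 was at 4.12 in knockout retina and 4.13 in wild-type retina, below 961 of the 1023.

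Among the 4 measured receptor chains other than gp130 and the LIF receptor, 1 passed at the unadjusted level, Osmr, which encodes the oncostatin M receptor. Osmr read 6.73, 6.49 and 6.81 in knockout retina and 6.53, 6.43 and 6.46 in wild-type retina. The knockout replicate 2 array lay below the highest wild-type array. The difference was 0.20 (SE 0.086; limma, unadjusted p = 0.0422, adjusted p = 1.00), from a dim cluster with 153 olfactory receptor clusters at or above it. It was 0.14 (limma, unadjusted p = 0.153) without the knockout replicate 3 array and 0.27 (limma, unadjusted p = 0.0112) without both replicate 2 arrays. Il6ra, Cntfr and Il27ra, which encode receptor chains for interleukin-6, CNTF and interleukin-27, had differences of -0.10, -0.078 and -0.060.

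Of 6 other Janus kinase and STAT genes, 4 lay above 0 and 0 passed, with Stat2 at -0.075 (SE 0.085) and Stat5b at 0.073 (SE 0.080). The Stat2 difference was -0.25 with the lens marker mean as a covariate (limma, unadjusted p = 0.0231), -0.23 with the endothelial marker mean and -0.0012 without the knockout replicate 2 array. Other pathway genes under 0.05 in the lens fit included Cish at -0.28, Pias4 at -0.24 and Pim1 at 0.26 (limma, unadjusted p = 0.00884, 0.0175 and 0.0420). The share of all tested clusters under 0.05 in that fit was not counted, and Cish, Pias4 and Pim1 were named after their values were seen. In the fit without a covariate their differences were -0.011, -0.054 and 0.0755 (limma, unadjusted p = 0.920, 0.536 and 0.452). Without a covariate, inhibitors of the pathway, the SOCS and PIAS families and phosphatases, were split evenly, 8 of 16 above 0 and 0 passing, with a median of 0.0028. Pias1 and Pias2, whose products bind activated STAT proteins, had differences of 0.024 (SE 0.063) and 0.034 (SE 0.055).

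Genes known to be induced through STAT3 had 14 of 26 members above 0 and a median of 0.0087. At an unadjusted p under 0.05, 3 were higher and 0 lower. Mcl1, a survival factor of the BCL2 family, read 10.71, 10.77 and 10.75 in knockout retina and 10.57, 10.63 and 10.59 in wild-type retina, so that the groups did not overlap. Its difference was 0.15 (SE 0.055; limma, unadjusted p = 0.0233, adjusted p = 1.00), and 0.16 (limma, unadjusted p = 0.0784) without both replicate 2 arrays.

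A2m, which encodes the protease inhibitor alpha-2-macroglobulin, had the largest difference of the 107 genes. It read 8.47, 8.53 and 8.90 in knockout retina and 8.22, 8.29 and 8.01 in wild-type retina, with no overlap. The difference was 0.46 (SE 0.12; limma, unadjusted p = 0.00418, adjusted p = 1.00), or 1.38-fold. Without both replicate 2 arrays it was 0.57 (limma, unadjusted p = 0.00588, adjusted p = 0.999). Ifitm3, an antiviral membrane protein also induced by interferons, read 6.47, 6.08 and 6.35 in knockout retina and 5.89, 6.00 and 5.86 in wild-type retina. The lowest knockout array stood just above the highest wild-type array. The difference was 0.38 (SE 0.099; limma, unadjusted p = 0.00385, adjusted p = 1.00), from a cluster with 281 olfactory receptor clusters at or above it. It was 0.54 without both replicate 2 arrays (limma, unadjusted p = 0.000294, adjusted p = 0.565).

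Marker lists of several other cell types lay higher in the knockout beside these genes. The endothelial list had 10 of 11 markers above 0, with array means of 8.05, 7.83 and 8.15 in knockout retina and 7.89, 7.75 and 7.75 in wild-type retina. The lens list had 10 of 12 above 0, with array means of 7.68, 7.58 and 7.80 in knockout retina and 7.60, 7.49 and 7.54 in wild-type retina. The knockout replicate 2 array overlapped the wild type in both lists. Microglial markers had 7 of 8 above 0 with a median difference of 0.13, pericyte markers 5 of 6 with 0.13 and astrocyte markers 5 of 6 with 0.084, against 0.16 for the endothelial and 0.075 for the lens list. Microglial array means were 8.23, 8.04 and 8.33 for knockout and 8.04, 7.98 and 8.10 for wild type. The part of the microglial, pericyte and astrocyte signal in these differences was not tested. Among the remaining lists, progenitor markers had 4 of 7 above 0 (median 0.0017) and ganglion cell markers 3 of 8 (-0.034). Photoreceptor precursor markers had 4 of 6 (0.049) and amacrine and horizontal cell markers 7 of 9 (0.030). Pigment epithelium markers had 6 of 10 (0.033), mesenchyme markers 5 of 9 (0.040) and corneal and ciliary markers 2 of 6 (-0.0070).

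With the endothelial mean as a covariate the differences were 0.011 for Osmr, 0.29 for A2m, 0.23 for Ifitm3 and 0.18 for Mcl1. With the lens mean they were 0.013, 0.28, 0.27 and 0.18. Of these values, that of Mcl1 with the endothelial mean alone had an unadjusted p under 0.05 in the limma fit (limma, unadjusted p = 0.0498). The Ptpn9 difference, -0.58 without a covariate, was -0.45 with the endothelial mean and -0.46 with the lens mean. Both marker means lay higher in the knockout, so these fits can also take up part of a genotype difference. How much they took up was not tested. In whole retina, more cells of a type and more RNA per cell cannot be told apart. Among the 10 genes, the endothelial mean as a covariate left Egfr at 0.11 and the lens mean left it at 0.089. Differences of Il6st (-0.10 and -0.12, in the same order), Erbb2 (-0.10 and -0.11), Jak2 (0.11 and 0.10) and Erbb4 (0.099 and 0.097) became larger in size. Those of Erbb3 (0.027 and 0.063) and Jak1 (-0.0045 and -0.0050) became smaller. Sign changes of Stat3, Socs3 and Lifr are given below. In both fits 0 of the 10 genes had an unadjusted p under 0.05 (limma).

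Of 10 measured EGF family and neuregulin genes, the ligands of the ErbB receptors, 2 lay above 0 and 0 passed, with a median of -0.019. All of them lay between -0.047 and 0.044. Nrg3, a neuregulin, read 9.89 ± 0.16 in knockout retina and 9.93 ± 0.13 in wild-type retina (SD, n = 3), a difference of -0.040 (SE 0.096). Hbegf, the heparin-binding EGF-like factor, had a difference of 0.044 (SE 0.070).

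Adaptors and regulators of ErbB receptors had 11 of 19 members above 0, a median of 0.012, and 1 gene lower at the unadjusted level, Cbl, which encodes the ubiquitin ligase that sends activated EGFR to degradation. Cbl read 10.10, 10.13 and 10.05 in knockout retina and 10.15, 10.26 and 10.35 in wild-type retina. All knockout arrays lay below all wild-type arrays. The difference was -0.16 (SE 0.067; limma, unadjusted p = 0.0409, adjusted p = 1.00), and it was -0.18 (limma, unadjusted p = 0.0949) without both replicate 2 arrays. It was -0.087 with the lens mean and -0.077 with the endothelial mean as a covariate. Errfi1, the feedback inhibitor of EGFR, had a difference of 0.14 (SE 0.070; limma, unadjusted p = 0.0697).

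Genes induced through the ERK pathway had 16 of 20 members above 0 and a median of 0.059, and 0 passed without the block. The brightest were Ccnd1, the gene of cyclin D1, at 0.013 (SE 0.054) and the ETS factor gene Etv5 at 0.11 (SE 0.065). With cyclic loess scaling the Ccnd1 difference was -0.021. Egr1, an immediate early gene, had a difference of 0.24 (SE 0.13; limma, unadjusted p = 0.0959), or an unadjusted p of 0.00568 with the replicate block in limma.

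**Figure D4:**
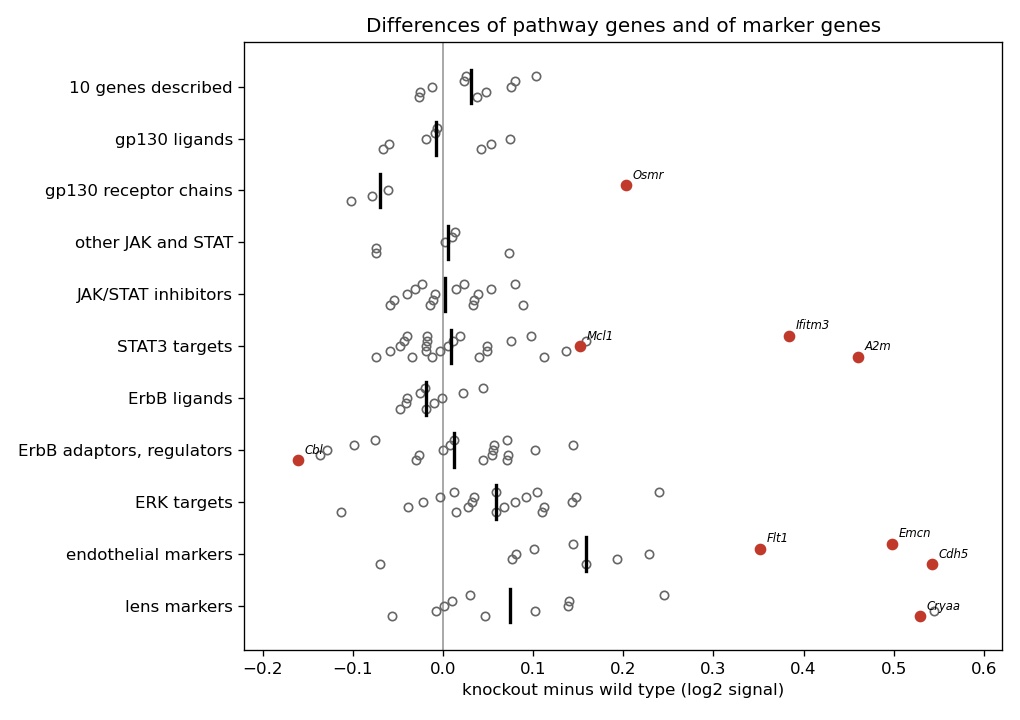
Differences, knockout minus wild type in log2 signal, of the 10 genes, of the genes of 8 pathway lists, and of endothelial and lens markers. Each circle is a gene, filled red and named where the unadjusted p in limma is under 0.05, and black bars are list medians. The circles of most pathway lists gather around 0, and the 5 named pathway genes are Osmr, Mcl1, Ifitm3, A2m and Cbl.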

How the data were processed

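The authors deposited log2 signals per transcript cluster from Affymetrix Mouse Gene 1.0 ST arrays, made with Affymetrix Expression Console and RMA per the submitters' processing notes, which also name Transcriptome Analysis Console. RMA gives every array the same distribution of probe values, which takes out any change common to most transcripts. For software versions and the authors' test, the sources used here give nothing.

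Of 35557 clusters, 21789 had 1 annotated gene, 1621 several and 12147 none in the platform annotation used here. Entrez identifiers of 21698 single-gene clusters matched the GRCm38.p6 gene table. The 23410 clusters with a gene were tested with limma 3.58.1 (R 4.3.3) on the deposited values, without a filter, and p-values were adjusted by Benjamini-Hochberg over all of them (threshold 0.05). The fit was tested on simulated data with independent arrays and changes larger than any difference given here. That test did not cover smaller changes or the correlation of same-numbered arrays. Tables and figures used pandas 2.3.3 and matplotlib 3.10.9 in Python 3.11.15.

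The labels call the samples biological replicates and number them 1 to 3 in each genotype. Deviations from group means correlated between same-numbered arrays at 0.476, 0.485 and 0.455, above the 0.1 taken as pairing. The pairing comes from the replicate numbers of the labels, whose meaning is not stated, and sex-linked signal changed with these numbers in both genotypes. Sample titles also carry a tag from P1 to P6, in which same-numbered knockout and wild-type samples are adjacent. The meaning of this tag is not stated either. The sources used here name no scan date or slide that could serve as a batch.

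The genes and lists were chosen with earlier results of these data known, so no p-value was adjusted over a list alone. In each pathway list, genes with an unadjusted p under 0.05 were named, or otherwise the 2 brightest. Il6, Il6ra, Cntfr, Il27ra, Errfi1, Cp, Tgm1, Egr1, Cish, Pias4 and Pim1 were named after their values were seen.

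Alternatives changed the scaling (cyclic loess or median centring), the variance model (trend or robust), the weights of arrays, the filter on signal, the clusters tested, and the cluster standing for a gene. Others added the replicate block or the lens or endothelial marker mean, or left out arrays.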

Additional observations from a re-analysis of the deposited data

How the results depend on the processing

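Over 19 alternatives, 0 of the 10 genes reached an adjusted p under 0.05, and the lowest adjusted p was 0.591, for Egfr with the replicate block (limma). The count of the 10 genes at an unadjusted p under 0.05 ranged from 0 to 1 with arrays left out, and the count without overlap from 0 to 2. With fewer arrays more clusters do not overlap: 15.8% to 22% of tested clusters with 1 array left out, and 29% without both replicate 2 arrays. Cyclic loess gave 1 gene without overlap, Egfr, where 10.1% of tested clusters did not overlap. With the replicate block 1 of the 23410 tested clusters passed correction in limma and none of the 10 genes changed its call. With arrays left out the count of tested clusters passing stayed at 0, and the Ptpn9 difference ranged from -0.69 to -0.52.

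Directions near 0 turned. With the lens mean as a covariate, Stat3 was at -0.046, Lifr at -0.0093, Clcf1 at -0.045, Stat5b at -0.094 and Nrg3 at 0.14. With the endothelial mean, Stat3 was at -0.040, Socs3 at -0.015, Clcf1 at -0.050, Stat5b at -0.079 and Nrg3 at 0.15. Cyclic loess put Ccnd1 at -0.021. With arrays left out, Stat3 ranged from -0.013 to 0.056, Socs3 from -0.014 to 0.045, Il6st from -0.063 to 0.016, Lifr from -0.010 to 0.14, Jak1 from -0.041 to 0.011, Jak2 from -0.012 to 0.084, Erbb2 from -0.072 to 0.045, Pias1 from -0.011 to 0.056, Nrg3 from -0.13 to 0.031 and Hbegf from -0.0039 to 0.090. The cause was not tested. Egfr, Erbb3 and Erbb4 kept their direction under every alternative in which they were tested, with ranges of 0.067 to 0.15, 0.011 to 0.18 and 0.0064 to 0.063 with arrays left out. The filter at the median signal removed Erbb3 and Erbb4.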

Other observations

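Gfap, the intermediate filament gene of astrocytes and reactive Muller glia and a known STAT3 target, varied widely between arrays of 1 genotype. Its 6 arrays spanned 0.74 on the log2 scale, with means of 7.27 ± 0.28 for knockout and 7.25 ± 0.37 for wild type (SD, n = 3). The difference was 0.019 (SE 0.19; limma, unadjusted p = 0.921), with a 95% interval from -0.41 to 0.45 that is wider than that of any of the 10 genes described above. Gfap was singled out after its values were seen.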
